A study of Homo sapiens with 8 samples.

Results

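Clustered histone genes are the intronless genes that lie together in a few places of the human genome and encode the bulk of the histone proteins. They were taken as every gene whose symbol, in the older naming, begins with HIST1 to HIST4 followed by H1, H2A, H2B, H3 or H4, without the symbols of pseudogenes. The rule used no measured value and found 68 of the 23459 genes in the count table. The pseudogene HIST1H2APS1 was the 1 gene left out. The 68 genes comprised 6 of the linker histone H1, 15 of H2A, 20 of H2B, 13 of H3 and 14 of H4. HIST2H2BA and HIST2H2BC met the rule although RefSeq lists both as transcribed pseudogenes, and rows for HIST1H2AI, HIST2H2AA3, HIST2H3A and HIST2H4B were not analysed here.

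H2A, H2B, H3 and H4 form the protein core around which DNA is wound, and H1 binds the DNA between the cores. Clustered genes are known to be transcribed mainly in S phase, when new DNA has to be packaged. Their mRNAs end, as a rule, in a short stem-loop that is bound by the protein SLBP and carry no poly(A) tail, so that libraries primed on poly(A) hold few of them whereas libraries of total RNA can hold them.

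RNA was measured in Hct116 cells, an established human colorectal carcinoma line, treated for 16 h with 30 μM lenalidomide (4 libraries) or with an equivalent amount of the solvent DMSO (4 libraries). Lenalidomide binds cereblon, the receptor of a ubiquitin ligase, and redirects the ligase to other proteins. Libraries came from total RNA (ScriptSeq v2), and the cultures were split between RNA and a protein labelling experiment in which part of the replicates had their isotope labels swapped. Which libraries these were is not given in the sources used here. The RNA-seq design text calls the replicates biological, whereas the study's methods call those of the single time point experiment technical. Where replicates were not separate cultures, the p-values measure only the spread between these libraries.

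Libraries held between 28218471 and 37473413 counts, with every lenalidomide library smaller than every DMSO library, and TMM factors, which scale for composition, were 0.971 to 1.02. Of the 7 epithelial and colon markers 6 were detected above the filter, with a summed level of 2295 to 2596 CPM (reads of a gene scaled to a common library size) in DMSO and 2221 to 2553 in lenalidomide, and VIL1 was near 0. The 7 markers of other cell types summed to 2.89 to 3.48 CPM in DMSO and 2.74 to 4.09 in lenalidomide, with COL1A1 (mean 2.97 CPM) as the only one past the filter.

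The stem-loop was read first from the genome, since it marks the genes whose mRNA can end without poly(A). A coding model was found for 63 of the 68 genes in the GENCODE annotation of GRCh37, the build of the alignment, and 60 of them held the pattern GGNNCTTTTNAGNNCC on their own strand within 100 bases after the stop codon. The pattern began 22 to 67 bases after the stop codon. It was found at 5 of 19701 other protein-coding genes (0.025%). The 3 genes without it were HIST1H3E, HIST1H2BI and HIST1H4L. A form shared by H1, H2A, H2B and H3 genes occurred in 36 genes, and 9 H4 genes had their own form, in which the stem pairs differ. The following examples show these forms and another, found in 9 genes, with the pattern in capitals and its GRCh37 position given.
HIST1H1C (chr6:26055972-26055987, minus strand): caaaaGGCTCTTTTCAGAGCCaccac
HIST1H1B (chr6:27834575-27834590, minus strand): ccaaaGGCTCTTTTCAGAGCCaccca
HIST1H3B (chr6:26031825-26031840, minus strand): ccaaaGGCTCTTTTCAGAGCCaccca
HIST1H4C (chr6:26104545-26104560, plus strand): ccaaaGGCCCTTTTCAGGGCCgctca
HIST1H2BJ (chr6:27100100-27100115, minus strand): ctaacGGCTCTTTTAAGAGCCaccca
HIST1H1B and HIST1H3B have the same letters over these 26 bases.

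Promoters in the RefSeq table (GRCh38.p14, 250 bases before to 50 after the start) were found for 61 of the 68 genes. The CCAAT box, searched on both strands, was in all 49 promoters of H1, H2A, H2B and H3 genes and in 3 of 12 H4 promoters, against 39.7% of 27305 genes with a promoter in that table. TATAAA was in 41 of the 61, against 3819 of the 27305. The octamer ATTTGCAT was in 11 of 14 H2A and 14 of 18 H2B promoters, and in none of the 6 H1 and 12 H4 promoters, against 2.19% of all. Among 11 H3 genes it was in 1, HIST1H3D, at a second listed start that is the promoter of HIST1H2AD, and not at its other start. The letters AAACACA, part of the box named after H1 genes, were in all 6 H1 promoters and in 2 of the other 55, against 6.94% of all. These are counts of letters in a window and say nothing of bound factors. The promoters of HIST1H1C and HIST1H1B are shown because both genes encode linker histones, share these letters and the stem-loop, and stood at opposite ends of the levels described next. The 150 bases before each start are given 5′ to 3′ on the gene's strand, with AAACACA and CCAAT, or its reverse complement ATTGG, in capitals.
HIST1H1C (GRCh38.p14, chr6:26056471-26056620, minus strand): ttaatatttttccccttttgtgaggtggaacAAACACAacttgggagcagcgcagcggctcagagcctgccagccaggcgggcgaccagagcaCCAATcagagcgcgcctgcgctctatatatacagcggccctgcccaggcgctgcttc
HIST1H1B (GRCh38.p14, chr6:27867589-27867738, minus strand): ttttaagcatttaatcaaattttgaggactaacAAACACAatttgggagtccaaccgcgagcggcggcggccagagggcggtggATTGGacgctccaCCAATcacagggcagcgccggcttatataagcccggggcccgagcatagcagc

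Genes were split at a set mean level of 1 CPM into a high and a low group, and levels ranged widely within each. Of the 68 genes 39 had a mean level of at least 1 CPM over the 8 libraries, from 2.76 CPM for HIST1H1T to 874 CPM for HIST1H1C. The other 29 lay at or below 0.526 CPM, with no more than 25 counts in any library, and no gene lay between. HIST1H1C counts ran from 25159 to 34078 per library and summed to 237073. HIST1H1B, whose printed promoter and stem-loop hold the same motifs, had 0 to 2 counts per library and 8 in all, and its coding sequence was unique in the genome. Of the genes in the low group 8 were at 0 in every library. These 8 were 1 H2A, 2 H2B, 2 H3 and 3 H4 genes. A limit of 3 counts allows up to 0.011 CPM over the 8 libraries where reads can be assigned to the gene. In 3 of the 8 (HIST2H2AA4, HIST2H3C and HIST2H4A) no 50-base stretch of the coding sequence occurs only once in the genome. Their 0 counts therefore set no limit on their level.

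The stem-loop, CCAAT and TATAAA were common in both groups. Among genes with a coding model the stem-loop was in 36 of 37 genes of at least 1 CPM and in 24 of 26 below it. CCAAT was in 29 of 34 and 23 of 27 promoters, TATAAA in 23 of 34 and 18 of 27, and AAACACA in 4 of 34 and 4 of 27. The octamer was in 17 of 34 promoters of genes of at least 1 CPM and in 9 of 27 below.

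Levels between genes were compared per length, as CPM divided by the exonic width in kilobases that the authors give. Among the linker histones HIST1H1C, which makes H1.2, had 1193 CPM per kb and HIST1H1E, which makes H1.4, 640. The testis type HIST1H1T stood at 3.80 CPM per kb. HIST1H1A was at 0.459, HIST1H1D at 0.0778 and HIST1H1B at 0.0364 CPM per kb. A pair of genes thus carried nearly all H1 counts in this line.

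H2A and H2B levels were spread over more genes. The H2A genes with the highest mean levels were HIST3H2A with 664 CPM per kb, HIST1H2AM with 625 and HIST1H2AH with 615. In DMSO these were 660 ± 78.0, 603 ± 43.0 and 615 ± 52.0 CPM per kb (SD, n = 4), so their order is not larger than the spread between libraries. The H2B genes were led by HIST1H2BJ with 672 CPM per kb, HIST1H2BD with 438 and HIST1H2BO with 367. Median levels over the genes of at least 1 CPM were 298 CPM per kb for 11 H2A genes and 110 for 13 H2B genes.

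H3 genes were the lowest class by the reads that could be assigned. No 50-base stretch of the coding sequence of HIST2H3C, and 11.4% of those of HIST2H3D, occur only once in the genome. HIST2H3A was not analysed, so the H3 levels may be too low. HIST1H3B had 263 CPM per kb, HIST1H3D 203 and HIST1H3A 46.7, and the median over 5 H3 genes of at least 1 CPM was 46.7. HIST1H3D was counted over 921 exonic bases, against a coding length of 408, and RefSeq lists for it a second start identical to that of HIST1H2AD, so its 187 CPM, the most of any H3 gene, may hold reads of HIST1H2AD (152 CPM). The H4 genes, whose sequences nearly all encode the same protein, were led by HIST1H4C with 438 CPM per kb, HIST1H4E with 419 and HIST1H4D with 305, with a median of 202 over 7 genes. Summed over all genes of a class, the mean levels were 1838 CPM per kb for H1, 4128 for H2A, 2561 for H2B, 585 for H3 and 1525 for H4. HIST1H3H and HIST2H2BE had the largest exonic widths, 2338 and 2223 bases, followed by HIST2H2BF with 1690. With 60.4 and 61.1 CPM, HIST1H3H and HIST2H2BE came to 25.8 and 27.5 CPM per kb. Their coding lengths are 408 and 378 bases, so these levels per kb depend on the width used.

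**Figure D1:**
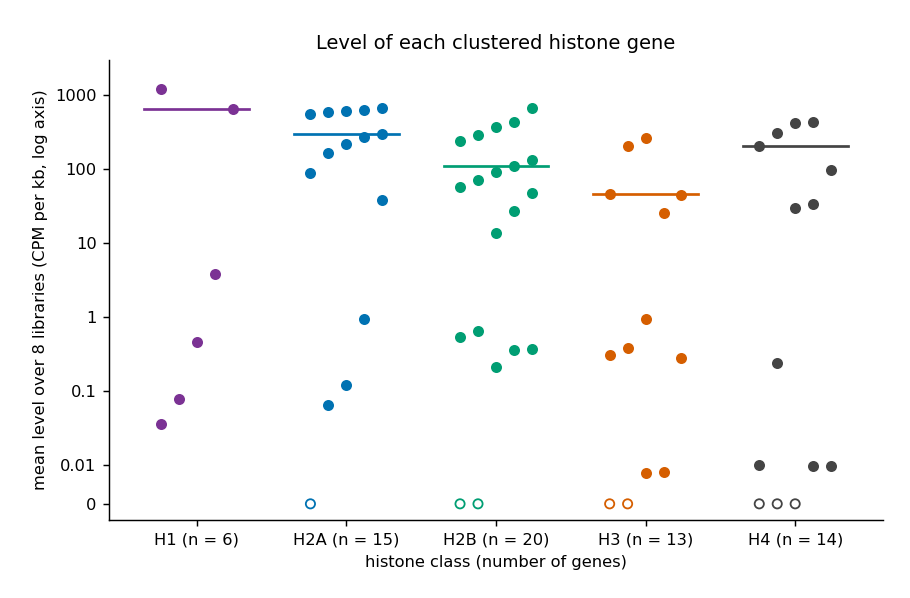
Mean level of each of the 68 clustered histone genes over the 8 libraries (CPM per kb, log axis) by histone class. Each point is a gene, open circles at the bottom are genes with 0 counts in every library, and lines are the medians over genes of at least 1 CPM (46.7 for H3 to 640 CPM per kb for H1). HIST1H1T, at 3.80 CPM per kb, is the lowest gene of the high group.

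Clustered histone genes took 0.516% (DMSO replicate 3) to 0.644% (DMSO replicate 2) of all counts. H2A genes held 34.7% of the histone counts scaled to CPM, H2B 24.9%, H1 23.5%, H4 9.79% and H3 7.09%. HIST1H1C and HIST1H1E alone held 23.5%, and the 10 genes with the most counts held 64.7%.

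Some levels cannot be assigned to a single gene. For each coding sequence, the share of its 50-base windows that occur once in the GRCh37 genome was counted. In 5 genes (HIST1H4J, HIST1H4K, HIST2H2AA4, HIST2H3C and HIST2H4A) no window was unique, nor any of 100 bases, and none of the 5 had more than 1 count in a library. HIST2H2AA4, HIST2H3C and HIST2H4A each have a near-identical copy, and their exonic widths in the table (1068, 1014 and 792 bases) against coding lengths of 390, 408 and 309 bases. All 3 were at 0 in every library, so nothing can be said of how much RNA these copies make. The paper states default QuasR parameters, under which reads that map to more than 1 place are not counted.

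Most low genes with a coding model had unique sequence. Of the 32 genes whose windows were all unique, 16 were at or above 1 CPM and 16 were below, 4 of these at 0 in every library. Between 50% and 100% of windows were unique in 21 genes, of which 18 were at or above 1 CPM. Below 50% but above 0 there were 5 genes, of which HIST1H2BK, HIST1H2AJ and HIST2H2BE were at or above 1 CPM and HIST2H2BF and HIST2H3D were below. HIST1H2AJ, with 15.5% of its windows unique, still had 73.5 CPM. Where along the gene its reads fell was not analysed here.

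Genes of the high and the low group lay in alternating runs of neighbours along chromosome 6. The number of runs that a random order would give was not computed. The 54 HIST1 genes, taken in RefSeq order, fell into 14 runs of neighbours on the same side of 1 CPM. The longest run of low genes held 9 genes, from HIST1H2BG to HIST1H3G, with no more than 25 counts in any library. It lies between HIST1H4E, with 158 CPM, and HIST1H2BI, with 6.04 CPM. Another run of 4 low genes (HIST1H2AL, HIST1H1B, HIST1H3I and HIST1H4L) had at most 3 counts in a library. The longest run of high genes held 7 genes from HIST1H1C to HIST1H2BD.

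**Figure D2:**
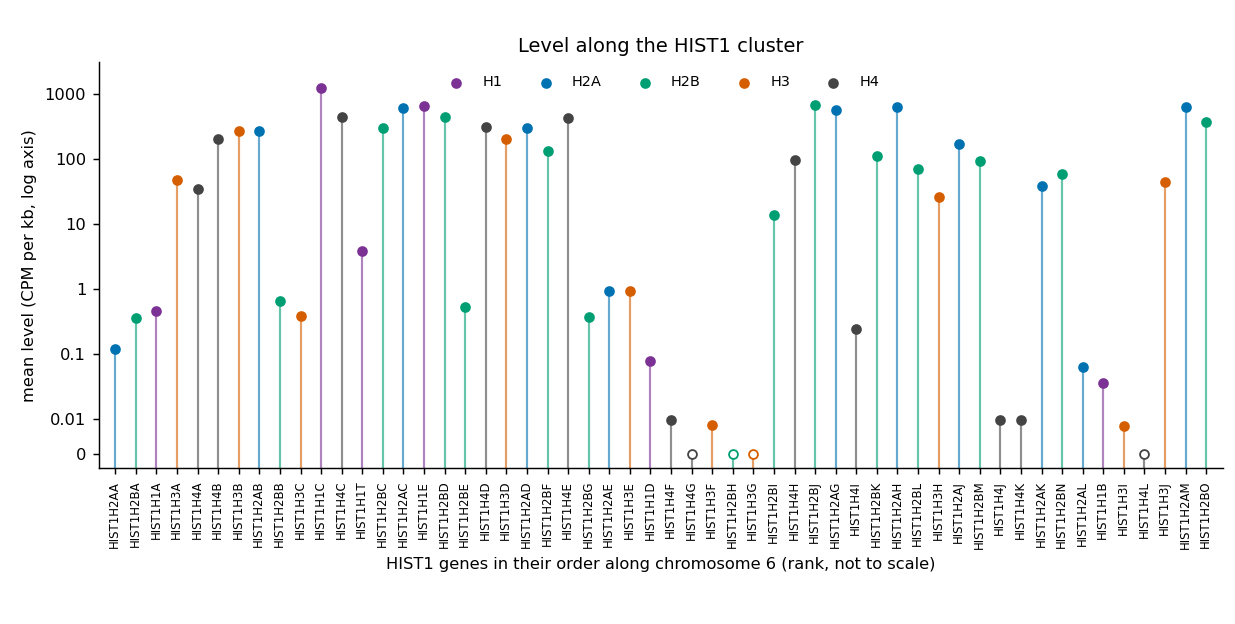
Mean level (CPM per kb, log axis) of the 54 HIST1 genes in their order along chromosome 6, with equal spacing by rank and coloured by class. Open circles are genes with 0 counts in every library. Runs of high genes alternate with runs of low genes, 14 runs in all, and the run of 9 low genes from HIST1H2BG to HIST1H3G is in the middle.

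H2A and H2B genes often start back to back and can share the stretch between their starts. In 11 such pairs the starts lay 194 to 251 bases apart, as the smallest distance found in RefSeq (GRCh38.p14) or GENCODE (GRCh37). Both genes were at or above 1 CPM in 9 pairs and both below it in 2, and no pair was split. Levels within pairs differed. The H2A gene was higher per kb in 7 of the 9 high pairs, with HIST3H2A at 664 and HIST3H2BB at 46.9 CPM per kb as the most unequal, a ratio of 14.2. HIST1H2AG and HIST1H2BJ were nearest to each other, with a ratio of 0.818. In the low pairs HIST1H2AE and HIST1H2BG had means of 0.526 and 0.166 CPM, and HIST1H2AA and HIST1H2BA 0.0609 and 0.159 CPM.

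**Figure D3:**
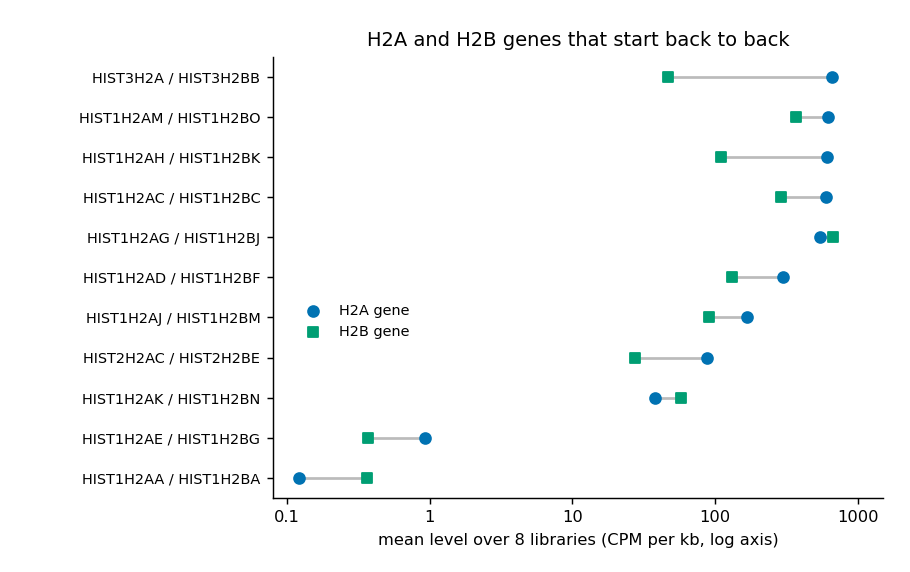
Mean level over the 8 libraries (CPM per kb, log axis) of the H2A gene (circle) and the H2B gene (square) in each of 11 pairs that start back to back. The 2 pairs at the bottom are low in both genes, and HIST3H2A with HIST3H2BB at the top is furthest apart.

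Lenalidomide against DMSO was then compared for the 42 clustered histone genes that passed the filter on low counts, which were the 39 genes of at least 1 CPM with HIST1H1A, HIST1H2AE and HIST1H3E. None of the 42 was called by the quasi-likelihood test of edgeR, with p adjusted by Benjamini-Hochberg over all 13925 genes tested (lowest adjusted p = 0.999), where 2 genes, or 0.0144%, were called. Without adjustment 1 of the 42 was higher at p below 0.05, against 3.26% of all genes tested, and none was lower, against 0.919%. With DESeq2 no member was called either and 1 was at an unadjusted p below 0.05, a run for which the share of all genes is not given here. The 4 lenalidomide values lay above all 4 DMSO values in 1 gene, against 1.24% of all, and below them in none, against 0.84%.

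HIST1H2BN, one of the H2B genes, was the gene with the smallest p. In DMSO it stood at 23.8, 26.2, 24.7 and 21.3 CPM and in lenalidomide at 27.1, 27.6, 28.7 and 27.7 CPM (replicates 1 to 4). The groups did not overlap. The log2 fold change was 0.21 ± 0.067 (SE), and edgeR's quasi-likelihood test gave it a Benjamini-Hochberg adjusted p of 0.999 (unadjusted p = 0.00745). A two-sided exact permutation test of the CPM values gave p = 0.0286, the smallest that 4 libraries against 4 allow. Groups that do not overlap always give this value, so it adds nothing to the lack of overlap, in a gene picked for its small p. HIST1H2BN starts back to back with HIST1H2AK, which showed a log2 fold change of 0.0053.

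The next smallest p values belonged to HIST1H2AJ and HIST1H4H. HIST1H2AJ stood at 63.4, 77.9, 56.5 and 73.4 CPM in DMSO and at 66.3, 94.4, 75.4 and 80.5 in lenalidomide, a log2 fold change of 0.22 ± 0.11 (SE, edgeR adjusted p = 0.999). HIST1H4H, an H4 gene, stood at 34.4, 37.7, 28.8 and 34.2 CPM in DMSO and at 35.4, 36.6, 43.4 and 36.9 in lenalidomide, 0.17 ± 0.084 on the log2 scale (SE, edgeR adjusted p = 0.999). In both genes the groups overlapped.

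HIST1H2AB was the only one of the 42 genes with a fold change below 0, -0.028 ± 0.077 (log2, SE). It stood at 120, 144, 120 and 134 CPM in DMSO and at 121, 136, 138 and 113 in lenalidomide, and the groups overlapped throughout. The linker histone HIST1H1C, with 881, 940, 856 and 804 CPM in DMSO and 837, 901, 898 and 872 in lenalidomide, had a log2 fold change of 0.012 with a 95% confidence interval of -0.12 to 0.14. HIST1H1E had 492, 526, 499 and 451 CPM in DMSO and 482, 511, 531 and 526 in lenalidomide, a fold change of 0.058 with an interval of -0.072 to 0.19. Genes with few counts were measured far less closely, such as HIST1H1A with 5 to 21 counts per library and an interval of -0.59 to 1.13.

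The fold changes were small and nearly all on the same side. Over the 42 genes the median log2 fold change was 0.096, from -0.028 to 0.27 (HIST1H1A), against 0.0025 over all genes tested. The fold change was above 0 in 41 of 42 genes (97.6%), against 51.3% of all genes tested. With RLE scaling it was above 0 in 40 of 42, with every library thinned to the smallest in 37 of 42 and with DESeq2 in 38 of 42. Shares of all genes above 0 are not given here for these runs or for those that left out a library. Class medians were 0.038 for 4 H1, 0.048 for 12 H2A, 0.11 for 13 H2B, 0.12 for 6 H3 and 0.13 for 7 H4 genes. The same libraries stand behind all these values, so the genes do not count as separate evidence of a direction, and the median rested strongly on DMSO replicate 3, without which it was 0.023, with 30 of 42 genes above 0. It was 0.154 without DMSO replicate 2, 0.062 without DMSO replicate 1 and 0.059 without lenalidomide replicate 3, and 30 of 42 genes were above 0 without lenalidomide replicate 2.

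**Figure D4:**
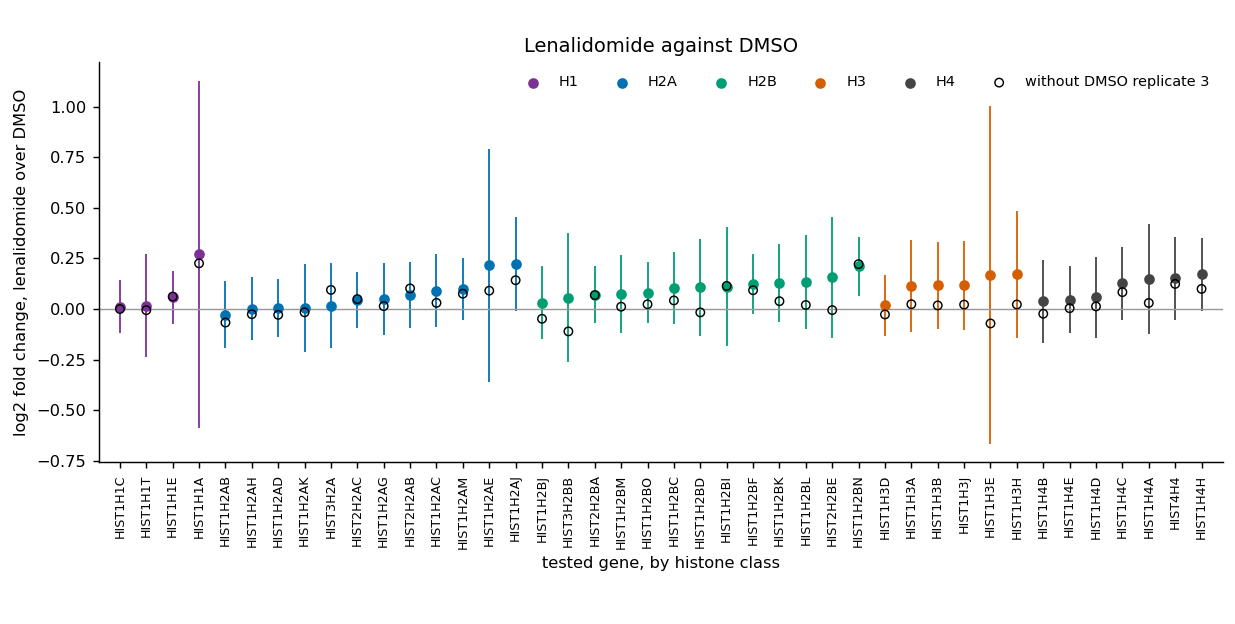
Log2 fold change of lenalidomide over DMSO for the 42 tested clustered histone genes, by class, with 95% confidence intervals from edgeR's quasi-likelihood fit. Open circles are the values without DMSO replicate 3, for which the median was 0.023 in place of 0.096. HIST1H2BN is the only gene whose interval lies above 0.

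The genes moved together between libraries of one treatment. Among the 39 genes of at least 1 CPM, DMSO replicate 3 had the lowest of the 4 DMSO values in 25 (33.8% of all genes tested), and DMSO replicate 2 had the highest in 34 (25.7% of all). Against the mean of the other 3 DMSO libraries, on a log2(CPM + 0.5) scale, the 39 genes had a median of -0.17 in replicate 3 and 0.21 in replicate 2, whereas the medians of all genes tested were -0.0068 and 0.0061. Within lenalidomide, replicate 3 was highest in 21 of the 39 genes (24.6% of all genes tested) and replicate 2 in 16 (28.0% of all). Replicate 1 was lowest in 20 (17.6% of all) and replicate 4 in 15 (31.2% of all). What moved the genes together was not tested. Since the S phase fraction was not measured, cell numbers in that phase, RNA per cell and other sources cannot be told apart.

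The low values of DMSO replicate 3 differed by class. All 5 H3 genes were lowest there, with a median of -0.40, as were 9 of 13 H2B genes (median -0.25) and 5 of 7 H4 genes (median -0.17). H2A genes had a median of -0.095 and H1 genes of -0.029. The widest gap was in HIST3H2BB with -0.79, while HIST3H2A, its back-to-back neighbour, was higher in that library (0.30). HIST2H2BE had 56.9, 70.0, 37.7 and 66.7 CPM in the 4 DMSO libraries and HIST1H3H 52.0, 71.8, 38.6 and 64.6. These are the long gene models named above, and both were lowest in replicate 3.

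**Figure D5:**
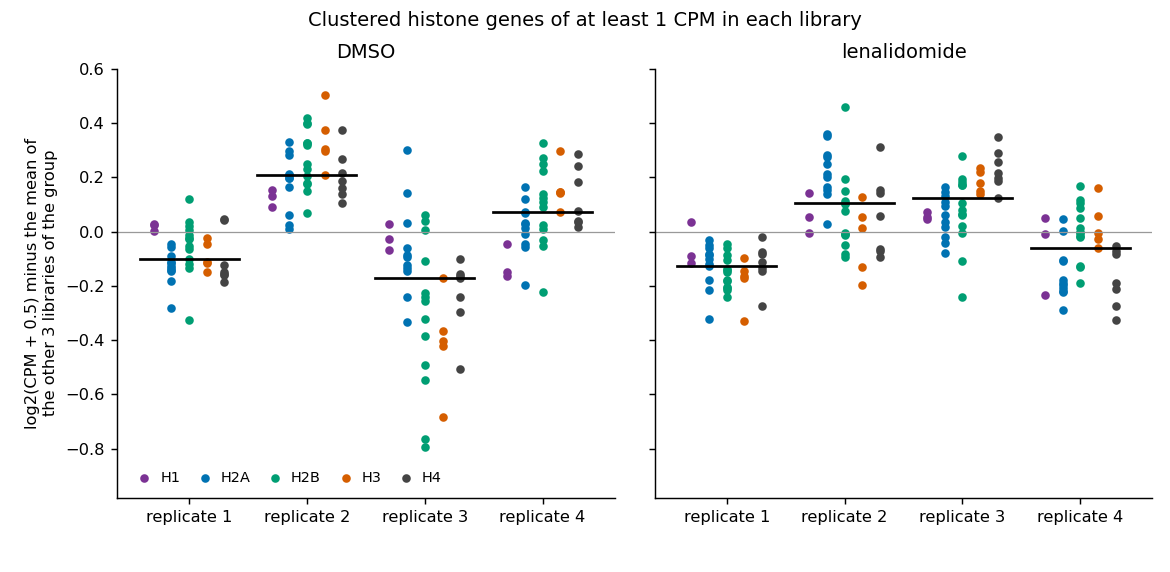
Level of each of the 39 clustered histone genes of at least 1 CPM in each library, as log2(CPM + 0.5) minus the mean of the other 3 libraries of the same treatment, coloured by class. Black lines are medians over the 39 genes. In DMSO the median is 0.21 in replicate 2 and -0.17 in replicate 3, where H3 and H2B genes reach lowest.

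Class sums gave the same picture. H1 genes summed to 1365 ± 87.0 CPM in DMSO and 1393 ± 48.9 in lenalidomide (SD, n = 4 each), and H2A genes to 2000 ± 136 and 2072 ± 190. H2B genes summed to 1415 ± 184 and 1505 ± 91.5 CPM, H3 genes to 404 ± 56.4 and 427 ± 31.5, and H4 genes to 557 ± 49.6 and 591 ± 62.9. The log2 ratios of the means, 0.029, 0.050, 0.089, 0.080 and 0.084 in that order, came from differences smaller than either SD in every class. Without DMSO replicate 3 the ratio was 0.010 for H2B and 0.0026 for H3, 0.038 for H4, 0.026 for H1 and 0.037 for H2A. The ratio turned to -0.0086 for H1 without DMSO replicate 4 and to -0.0065 for H2A without lenalidomide replicate 2.

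Genes that serve the same proteins by other routes were compared from lists set beside the histone genes. Replacement histones are made also outside S phase, from genes that lie apart from the clusters. None of the 12 tested was called in either direction, with a median log2 fold change of 0.021 and 8 above 0. H3F3B, which makes H3.3, had 370 CPM per kb, above the level counted for any clustered H3 gene. Its fold change was -0.062 ± 0.056 (log2, SE). H3F3A, for the same protein, had 34.6 CPM per kb and 0.0060, H2AFZ (H2A.Z) 284 and -0.023, H2AFX (H2A.X) 50.8 and 0.013, and the linker variants H1F0 and H1FX 78.7 and 15.4 CPM per kb with 0.044 and 0.060. Sequence uniqueness was not computed for the replacement histone genes, so levels counted for them may be too low as well.

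None of the 18 genes for transcription and 3′ processing of histone mRNA was called (median log2 fold change -0.012, 6 above 0). SLBP, the stem-loop binding protein, stood at 269, 219, 208 and 262 CPM in DMSO and at 239, 223, 258 and 230 in lenalidomide, a log2 fold change of -0.012 ± 0.082 (SE). NPAT, the activator of clustered histone transcription, stood at 66.8 ± 3.90 CPM in DMSO and 66.9 ± 2.39 in lenalidomide (SD, n = 4 each). Among 16 histone chaperones and assembly factors none was called, with a median of 0.0029 and 8 above 0. Among 20 genes of S phase and replication none was called, 1 was higher at an unadjusted p below 0.05 (TYMS, 0.14 on the log2 scale), and 4 had a fold change above 0, with a median of -0.027.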

How the data were processed

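Reads of total RNA were aligned by the authors to hg19 (GRCh37) with QuasR at default parameters, and the deposited values are raw read counts per gene over UCSC known genes, beside exonic widths. Versions are not given in the sources used here, except bcl2fastq 2.17 in the submitters' processing notes. The members, the gene lists and the tests were chosen with earlier results of these data known. The software was edgeR 4.0.16 under R 4.3.3. Genes were kept by filterByExpr (minimum count 10, minimum total 15; 13925 genes), scaled by TMM and compared by the quasi-likelihood test with treatment as the only term, with Benjamini-Hochberg adjustment over all genes tested and a threshold of 0.05. CPM uses library size and TMM factor. Intervals are at 95%. Intervals and limits for 0 counts cannot separate PCR copies from molecules and cover counting and library spread only.

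Genes named were the 3 highest per kb in each class, any called gene, the 3 smallest unadjusted p in each direction, every H1 gene, the 5 largest widths, copy pairs and set genes of the lists. Any other gene was picked with its values in view. Alternatives were RLE scaling, DESeq2 1.42.0, a filter of 1 count in all or of 10 counts per library, the replicate number as a block, thinning to the smallest library and leaving out each library in turn. Positions and window uniqueness came from GENCODE and the GRCh37 genome, promoters and gene order from RefSeq on GRCh38.p14. No pair of libraries within a treatment was a copy (chi-square over its degrees of freedom 5.80 to 25.5 for 12 pairs). On simulated counts for this comparison, with 200 genes changed, the test called 168 of them and 8 others at a log2 fold change of 0.58, 192 and 19 others at 1, and 0 genes with none changed. Genes were simulated independently of each other. Changes as small as the median of the tested histone genes (0.096) were not simulated, so the chance of calling those is not known.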

Additional observations from a re-analysis of the deposited data

Results flagged for a closer look

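In 54 groups of 4 libraries, 2 stood out by Dixon's test at its 95% critical value, where chance flags about 1 in 20 groups, or 2.7. Both were HIST1H2AM, an H2A gene. In DMSO replicate 2 it stood at 325.17 CPM, against 280.62 to 285.02 in the other 3 libraries, and in lenalidomide replicate 2 at 357.88 CPM, against 297.13 to 307.18.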

How the results depend on the processing

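No clustered histone gene and no gene of the related lists was called under any alternative run. The median log2 fold change of the clustered histone genes stayed above 0 in each. It was 0.087 to 0.096 with other scalings, filters, thinning and DESeq2, and 0.023 to 0.154 when 1 library was left out. With the replicate number as a block it was 0.097, with 3 of 42 genes at an unadjusted p below 0.05. The share of all genes at that p in the block fit is not given here, so the 3 cannot be read as an excess. Same-numbered libraries had correlations of 0.028, -0.024, 0.031 and 0.27 (replicates 1 to 4), against -0.29 to 0.17 for different numbers. Replicate 4 alone lay above that range, so a pairing by number was neither shown nor excluded. Over all genes tested, 2 were called, 7 with DESeq2, 4 without a filter beyond 1 count, 6 with the replicate block and 1 to 2 when 1 library was left out. Of 242 recomputed fold changes of 22 named genes, 217 kept their sign and 25, in 11 genes, turned, none of them called. HIST1H2AH turned to -0.0015 with RLE scaling and -0.0044 with DESeq2, and ran from -0.040 to 0.058 with 1 library left out. In the same way HIST1H1C ran from -0.025 to 0.051, HIST1H1T from -0.026 to 0.079, HIST1H2AB from -0.070 to 0.027, HIST1H2BD from -0.017 to 0.189, HIST1H2BJ from -0.048 to 0.095, HIST1H3D from -0.027 to 0.073, HIST1H4D from -0.025 to 0.134, HIST1H4E from -0.0092 to 0.112, HIST2H2BE from -0.0053 to 0.260 and HIST3H2A from -0.082 to 0.095. The cause was not tested. Of the 29 genes below 1 CPM, 26 were not tested. Among the 29, 5 had no unique sequence window, so reads could not be assigned to them. HIST2H2BF and HIST2H3D had 26.7% and 11.4% of windows unique. For HIST1H2BG, HIST1H4F and HIST2H2BC uniqueness was not computed. What keeps the counts of the others low was not tested.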

Other observations

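Summed levels of clustered histone genes and of the 20 genes of S phase and replication did not order the libraries alike. In DMSO the histone sum was 5535, 6338, 5319 and 5779 CPM (replicates 1 to 4) and that of the S phase genes 5956, 5761, 6255 and 5804 CPM, so that the library highest for histone genes was lowest for the S phase genes and the reverse. The 16 histone chaperones, with 4655, 4428, 4818 and 4483 CPM, were likewise lowest in replicate 2 and highest in replicate 3, and the epithelial markers were highest in replicate 3 with 2596 CPM, so that this order was not particular to S phase genes. In lenalidomide the histone sums were 5603, 6314, 6285 and 5749 CPM and the S phase sums 5778, 6102, 5926 and 5523 CPM, with replicate 2 highest in both. The 12 replacement histone genes summed to 2428 to 2491 CPM in DMSO and to 2353 to 2518 in lenalidomide.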
